A study of Oryza sativa with 8 samples.

Results

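The set described here holds 90 loci: their signal after 8 h of salt was at least 16-fold (4 log2 units) above that at 0 h in each of 2 rice lines. They are 90 of the 52795 loci on the array, and 5 further loci that met the same conditions were left out by name. The rule took the mean log2 signal of the 8 h arrays less the mean of the 0 h arrays in each line. It also asked for a signal well above background on all 4 arrays of the 8 h groups and for every 8 h array of a line to lie above every 0 h array of that line. With the 5 left-out loci, 0.180% of the loci on the array met these conditions. The loci were thus chosen by the size of their rise, which is given below as a description, with no test. The tests below compare the lines with each other at 1 time, a contrast that the rule did not take. The rule still shapes it, because a locus dark in either line at 8 h could not enter the set. Shares called among the 90 and among all loci are given side by side, with nothing read from their difference.

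The study measured RNA of whole rice seedlings (Oryza sativa), 14 days old, with 1-colour expression arrays. The groups were Pokkali at 8 h of 250 mM NaCl, Pokkali at 0 h, Nipponbare at 8 h of 250 mM NaCl and Nipponbare at 0 h, with 2 arrays in each, called replicates I and II after the titles. Pokkali is an indica line, known in rice research for its salt tolerance, and Nipponbare is the japonica line whose genome served as the rice reference. All seedlings grew in a greenhouse under natural light. No seedlings kept without salt until 8 h were among the samples, so salt and time of day cannot be told apart in any change from 0 h to 8 h. The labels do not say whether replicates came from separate plants or cultures, and p-values measure the spread between these samples only. In whole seedlings, a change in a transcript per cell and a change in the share of the cells that hold it cannot be told apart.

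High salt lowers the water potential around the root and lets sodium into the shoot. Plants respond through osmotic signalling, largely through the hormone abscisic acid, whose receptors inhibit clade A protein phosphatases 2C and so release protein kinases that activate transcription factors. Known targets include late embryogenesis abundant (LEA) proteins and dehydrins, which protect proteins and membranes in drying cells, and many such genes are nearly silent in unstressed leaves. The files name each probe only by its rice locus identifier, and the RefSeq gene table used here held 0 of these identifiers. The loci are therefore given by identifier, with no gene name or role. The chromosome is read from the identifier (LOC_Os06g lies on chromosome 6). Probe and transcript sequences were not used here.

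Levels below are log2 signals relative to the 75th percentile of the same array, so 0 is the level that 75% of spots lie under. A level depends on the probe as well as on the transcript, and only differences within a locus are compared. Across the arrays, 81.0% to 85.5% of the 61657 non-control spots passed the flag for a signal well above background, while the 75th percentile lay between 674 and 950 intensity units. The median level of the 90 loci was 1.96 and 2.02 on the Pokkali 8 h arrays, against -3.12 and -4.30 on the Pokkali 0 h arrays. In Nipponbare it was 1.71 and 2.06 at 8 h, against -2.85 and -4.01 at 0 h. The median of all loci on the array stayed between -2.57 and -2.47 on the 8 arrays.

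**Figure D1:**
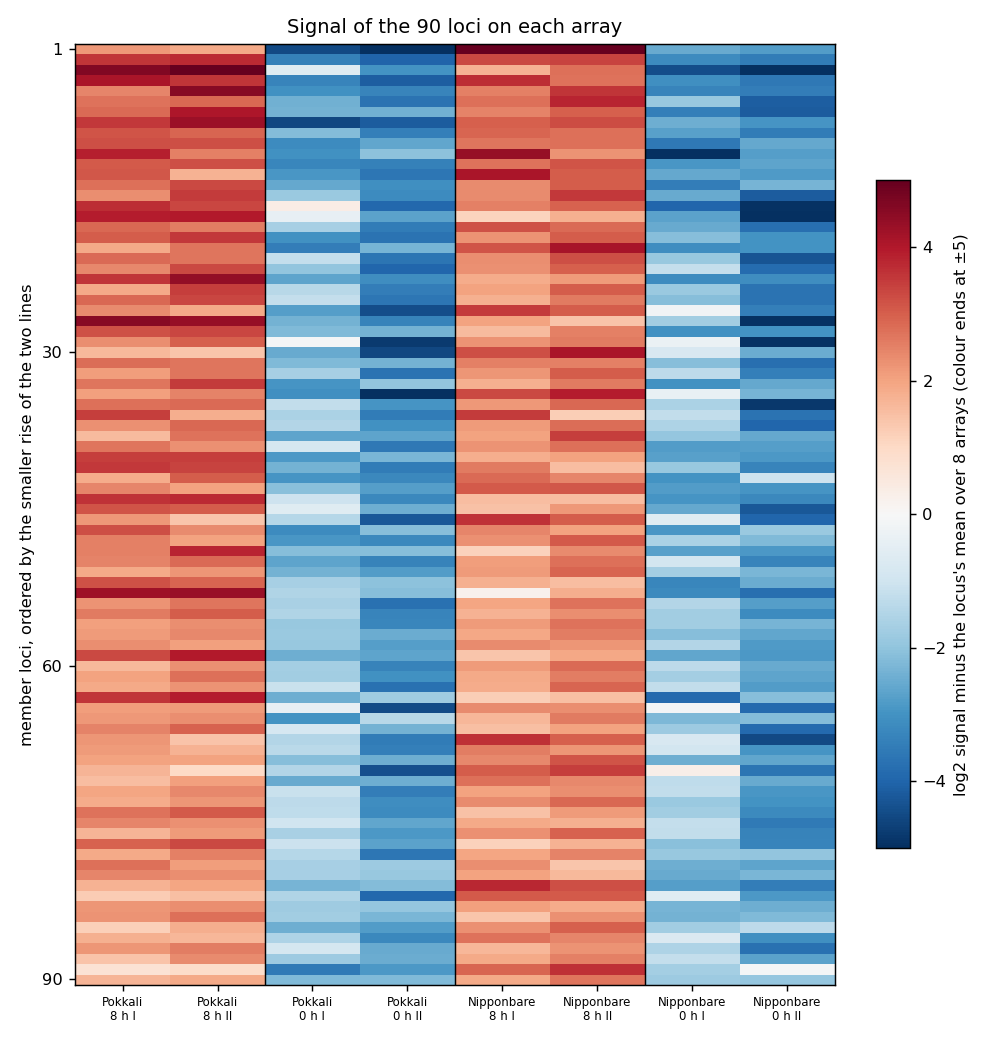
Log2 signal of the 90 loci (rows, ordered by the smaller rise of both lines) on the 8 arrays (columns), as the difference from each locus's mean over the 8 arrays, with the colour scale ending at 5 log2 units either way. Nearly all cells of the 8 h columns are red and nearly all of the 0 h columns blue; the replicate I columns at 0 h are paler than the replicate II columns for many loci.

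The rises ran from 4.01 to 8.27 log2 units in Pokkali, with a median of 5.09 (34.1-fold). In Nipponbare they ran from 4.11 to 8.20, with a median of 4.95 (31.0-fold). Over all 45236 loci tested, the median change was 0.08 in Pokkali and 0.05 in Nipponbare. The measured rise was at least 5 log2 units in both lines for 31 loci and at least 6 for 5 loci. With 0 h signals that were not above background raised to the dimmest signal that was, these counts were 26 and 3. The larger rise was in Pokkali for 48 loci and in Nipponbare for 42. The rises of both lines lay within 1 log2 unit of each other for 68 loci, which is 75.6% of them. Across the 90 loci the rises correlated between the lines with Pearson's r of 0.49, as a description across genes of one array set, over a range that the rule cut off at 4. The gap between the lowest 8 h array and the highest 0 h array, which the rule only required to be above 0, was 2.40 to 7.70 log2 units in Pokkali and 2.44 to 7.90 in Nipponbare.

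**Figure D2:**
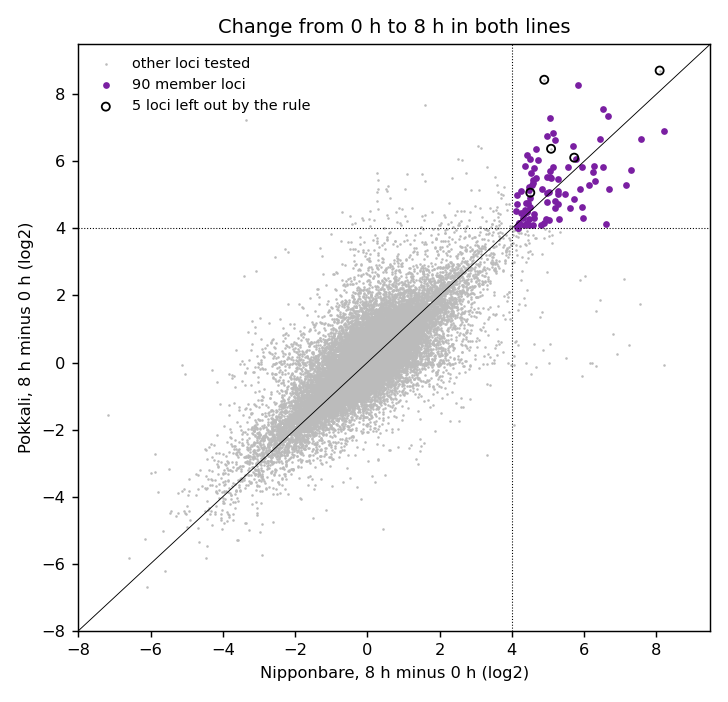
Change from 0 h to 8 h (log2 units) in Pokkali (vertical axis) and Nipponbare (horizontal axis) for the loci tested, with the 90 loci in purple, the 5 left-out loci as open circles, dotted lines at 4 and the line of equal change. The 90 loci fill the upper right corner, and 48 of them lie above the line of equal change.

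The 10 loci with the largest smaller rise of both lines are described array by array. This order uses measured signals, and 4 of the 10 were dark on both 0 h arrays of a line. With the dark signals raised to the detection limit, 8 of the 10 stayed among the first 10 and LOC_Os03g08580 led, while LOC_Os06g28050 and LOC_Os11g14900 were no longer among them. The level of LOC_Os06g28050 (chromosome 6) was -0.74 and -1.02 in Pokkali at 8 h, compared with -7.41 and -8.19 at 0 h, where it was not well above background on either array. In Nipponbare it was 2.79 and 2.48 at 8 h, against -5.42 and -5.71 at 0 h, a 294-fold rise. The Pokkali rise was at least 32-fold when the dark 0 h arrays were raised to the dimmest signal flagged as well above background on that array. That dimmest signal is called the detection limit here. A few dark signals lay above it and were kept as measured, so every bound given is relative to it. The rule required that the times not overlap in either line. Both 8 h levels of this locus were higher in Nipponbare.

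LOC_Os03g08580 (chromosome 3) had 3.17 and 3.33 in Pokkali at 8 h, compared with -3.80 and -4.41 at 0 h, and 2.89 and 2.96 in Nipponbare at 8 h, against -3.57 and -3.91 at 0 h. The 8 h levels of both lines spanned only 2.89 to 3.33, and the locus was well above background on all 8 arrays. LOC_Os07g34520 (chromosome 7) had 3.30 and 3.78 in Pokkali at 8 h, compared with -1.94 and -4.29 at 0 h. In Nipponbare it had 0.40 and 1.44 at 8 h, against -5.74 and -7.55 at 0 h, not well above background there. It was brighter in Pokkali at both times, and its rise was 101-fold in Pokkali and at least 119-fold in Nipponbare. Its level is the mean of 2 probes, which differed most on the replicate II arrays at 0 h, with an SD of 0.97 log2 units in each line. LOC_Os01g50622 (chromosome 1) had 1.93 and 1.42 in Pokkali at 8 h, compared with -5.48 and -6.29 at 0 h, and 1.51 and 0.54 in Nipponbare at 8 h, against -5.24 and -5.75 at 0 h. It was not well above background in Pokkali at 0 h, although its replicate I signal there lay above the detection limit of that array (-5.75). With replicate II raised to the limit its rise was 172-fold in Pokkali, and it was 91.8-fold in Nipponbare.

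LOC_Os11g14900 (chromosome 11) was dark on all 4 of the 0 h arrays. It had -2.42 and -0.33 in Pokkali at 8 h, compared with -7.89 and -8.18 at 0 h, and -2.34 and -1.30 in Nipponbare at 8 h, against -8.19 and -8.34 at 0 h. Its bounds, at least 22.8-fold in Pokkali and at least 19.7-fold in Nipponbare, lay under the measured differences of 101-fold in Pokkali and 87.2-fold in Nipponbare. LOC_Os08g04240 (chromosome 8) had 1.72 and 1.86 in Pokkali at 8 h, compared with -3.42 and -4.71 at 0 h, and 1.74 and 2.80 in Nipponbare at 8 h, against -2.88 and -5.12 at 0 h. Its 0 h levels were the lower ones in replicate II of both lines. LOC_Os01g72270 (chromosome 1) had 0.51 and 1.73 in Pokkali at 8 h, compared with -4.71 and -4.74 at 0 h, and 0.15 and 0.65 in Nipponbare at 8 h, against -5.74 and -6.50 at 0 h.

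LOC_Os07g05365 (chromosome 7) had the largest Pokkali rise of the 90 loci, 309-fold. Its level was 4.38 and 5.12 in Pokkali at 8 h, compared with -3.72 and -3.32 at 0 h. In Nipponbare it was 3.84 and 4.11 at 8 h, against -1.61 and -2.11 at 0 h, a 57.2-fold rise. The lines were close at 8 h, and the 0 h levels were the lower ones in Pokkali. LOC_Os11g34460 (chromosome 11) had 3.06 and 2.83 in Pokkali at 8 h, compared with -2.26 and -3.49 at 0 h, and 2.84 and 2.68 in Nipponbare at 8 h, against -2.82 and -3.57 at 0 h. LOC_Os05g41490 (chromosome 5) had 2.37 and 2.35 in Pokkali at 8 h, compared with -3.99 and -3.45 at 0 h, and 1.80 and 1.90 in Nipponbare at 8 h, against -4.44 and -3.43 at 0 h. The rises of these loci were 5.83 and 6.08 log2 units in Pokkali and 5.95 and 5.79 in Nipponbare.

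**Figure D3:**
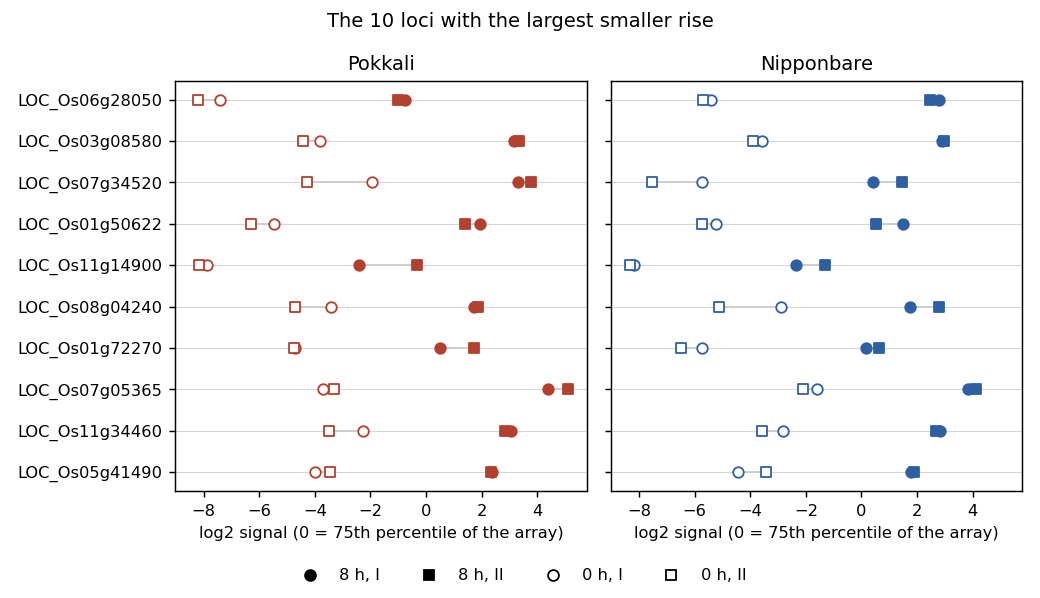
Level on each array (log2 signal, 0 being the 75th percentile of the array) of the 10 loci with the largest smaller rise, Pokkali on the left and Nipponbare on the right; filled symbols are 8 h arrays, open symbols 0 h arrays, circles replicate I and squares replicate II. No 8 h symbol reaches a 0 h symbol of its own row, which the rule required. Levels of different rows come from different probes.

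At the lower end, LOC_Os10g32658 had a rise of 4.01 log2 units in Pokkali and 4.16 in Nipponbare, LOC_Os02g18070 of 4.01 and 4.17, and LOC_Os12g33570 of 4.04 and 4.14. Just outside the threshold lay LOC_Os10g14060, with 3.98 in Pokkali and 4.91 in Nipponbare, LOC_Os09g15670, with 4.08 and 3.96, and LOC_Os12g04900, with 3.96 and 4.08. The rises just inside and just outside differ by hundredths of a log2 unit in the line that decided. With the threshold at 3 log2 units 250 loci met the rule, and with 5 log2 units 31 did.

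The 0 h signal set how well a rise could be measured. On the 0 h arrays, 59 of the 90 loci were well above background on all 4 arrays, 20 on 1 to 3 arrays and 11 on none. None of the 90 was saturated on any array. For the 11 loci that were dark on all 0 h arrays, the rise in each line is only a bound relative to the detection limit. It ran from at least 3.66-fold to at least 45.7-fold in Pokkali and from at least 4.89-fold to at least 38.0-fold in Nipponbare. A bound of 16-fold or more was reached by 4 of them in Pokkali and by 2 in Nipponbare. Only LOC_Os11g14900 reached it in both lines, and the 16-fold size of the other 10 in both lines rests on signals that were not well above background. Over all 90 loci, 75 kept a rise of at least 16-fold in both lines with such signals raised to the limit, and 15 did not.

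Among the 11, LOC_Os11g07911 (chromosome 11) had -2.61 and -1.82 in Pokkali at 8 h, compared with -7.96 and -6.85 at 0 h, and -1.36 and -0.39 in Nipponbare at 8 h, against -7.61 and -7.52 at 0 h. Its bound was at least 12.7-fold in Pokkali and at least 38.0-fold in Nipponbare. LOC_Os10g25710 (chromosome 10) had the lowest Pokkali bound, at least 3.66-fold, with -4.32 and -3.71 at 8 h against -7.96 and -8.29 at 0 h. In Nipponbare its 8 h levels were -3.22 and -2.53, against -7.26 and -6.81 at 0 h, at least 9.49-fold higher. A further 6 loci were dark on both 0 h arrays of 1 line and not of the other. They were LOC_Os01g50622, LOC_Os02g09790, LOC_Os03g09910, LOC_Os06g28050, LOC_Os06g37550 and LOC_Os07g34520.

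The 0 h replicates of these loci differed from each other, mostly in the same direction in both lines. The rule used the 0 h values, and what follows is a description. Replicate II lay below replicate I by a median of 1.05 log2 units in Pokkali (-1.05 as II less I) and 0.94 in Nipponbare (-0.94). Over all loci tested the same medians were 0.02 and -0.05. Replicate II was the lower one in both lines for 67 of the 90 loci (74.4%), against 36.7% of all loci tested. It was lower by at least 2-fold in both lines for 38 loci (42.2%), against 1.41% of all loci tested. Some of these gaps run to arrays without a signal above background. Among the loci well above background on all 4 of the 0 h arrays, replicate II was lower by at least 2-fold in both lines for 29 of the 59 in the set (49.2%) and for 1.31% of the 40191 tested. The differences between replicates correlated between the lines with r of 0.72 over the 90 loci and 0.54 over all loci tested, as a description across genes that share arrays.

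LOC_Os04g12720 (chromosome 4) had 1.96 and 1.18 in Pokkali at 8 h, compared with -1.63 and -4.43 at 0 h, and 3.41 and 2.80 in Nipponbare at 8 h, against -0.82 and -4.16 at 0 h. It was well above background on all 0 h arrays. Set against replicate I at 0 h alone its rise was 3.19 log2 units in Pokkali and 3.93 in Nipponbare. Replicate II less replicate I at 0 h was -2.81 log2 units in Pokkali and -3.33 in Nipponbare. LOC_Os05g07810 (chromosome 5) had -1.20 and -0.54 in Pokkali at 8 h, compared with -3.60 in replicate I and -8.30 in replicate II at 0 h, and -1.27 and -0.94 in Nipponbare at 8 h, against -3.85 and -8.45 at 0 h. Its replicate II was dark at 0 h in both lines, so only the rise against replicate I, 2.73 log2 units in Pokkali and 2.74 in Nipponbare, has a measured size. LOC_Os01g47190 (chromosome 1) had -1.48 and -1.42 in Pokkali at 8 h, compared with -3.97 and -8.05 at 0 h, and -1.19 and -1.25 in Nipponbare at 8 h, against -3.69 and -7.47 at 0 h, and was likewise dark in replicate II. In each case replicate I was the higher 0 h array in both lines. The opposite order was seen for 8 loci in both lines, among them LOC_Os12g31000 (chromosome 12), which had -6.20 and -5.22 at 0 h in Pokkali and -8.36 and -5.94 at 0 h in Nipponbare.

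Detection at 0 h is a cut of the same signals and not a separate finding. No share over all loci stands beside the detection counts that follow, so nothing is read from them. In both lines 7 loci were well above background in replicate I and not in replicate II, namely LOC_Os01g47190, LOC_Os01g74020, LOC_Os04g12970, LOC_Os05g07810, LOC_Os08g40700, LOC_Os08g41030 and LOC_Os09g31025. The reverse held for LOC_Os12g08700 and LOC_Os12g31000. How many loci meet the rule depends on these arrays. Without replicate I of both lines at 0 h, 129 loci met it, 85 of them among the 90, and without replicate II of both lines 63 met it, 51 of them among the 90. Replicate number ran with the slide column in both lines, and slide position and replicate cannot be told apart. At 8 h the replicates lay closer, with replicate II above replicate I by a median of 0.22 in Pokkali and 0.56 in Nipponbare. It was the higher one in both lines for 52 loci (57.8%), against 32.3% of all loci tested.

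**Figure D4:**
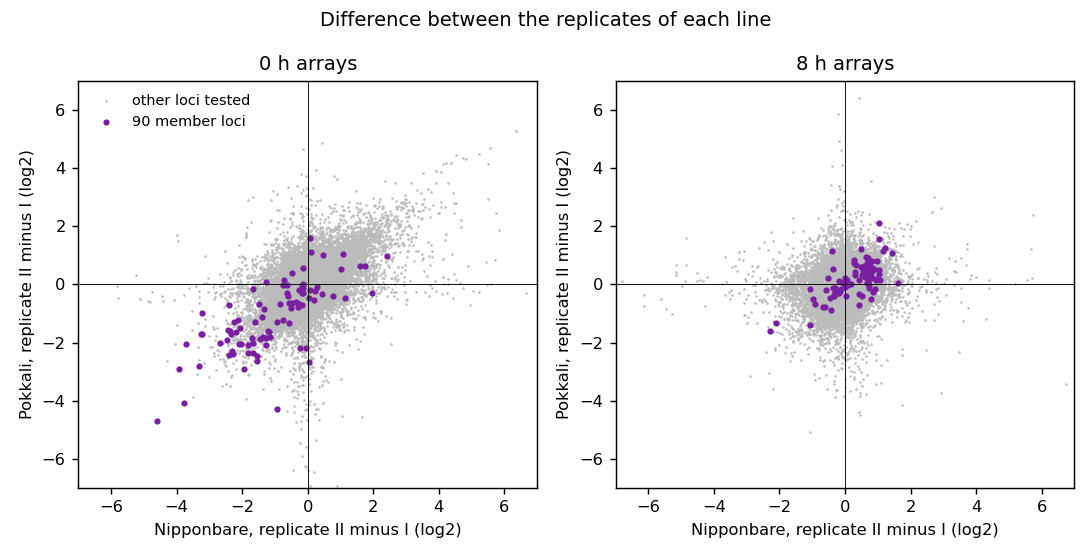
Replicate II less replicate I (log2 units) in Pokkali (vertical axis) and Nipponbare (horizontal axis), for the 0 h arrays on the left and the 8 h arrays on the right, with the 90 loci in purple over all other loci tested. At 0 h, 67 of the 90 points lie in the lower left quadrant; at 8 h, 52 lie in the upper right quadrant.

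Whether the lines differed in how these loci were expressed was tested across all loci with limma, with Benjamini-Hochberg adjustment over the 45236 loci tested and a threshold of 0.05. All 90 loci entered the fit. At 8 h, 10 of the 90 loci (11.1%) differed between Pokkali and Nipponbare, 7 of them higher and 3 lower in Pokkali (7 and 5 with no scaling between arrays). Over all loci tested 22.0% differed, 10.5% of all higher and 11.5% of all lower in Pokkali. The share among the 90 was under the background in this fit, although differences of at least 2-fold were more frequent among them, at 29 loci (32.2%) against 19.4% of all loci tested. All loci tested include loci with a signal in only 1 line at 8 h, which the rule kept out of the set. The spread around group means was wider for the 90 loci, with a median residual SD of 0.765 log2 units against 0.234 over all loci. This spread pools both times, and the 0 h replicates of the 90 loci differed more than the 8 h replicates. The SD of replicate II less replicate I over the 90 loci was 1.22 in Pokkali and 1.36 in Nipponbare at 0 h. At 8 h it was 0.61 in Pokkali and 0.69 in Nipponbare. The median SE of a line difference was 0.62 among the 90 and 0.23 over all. The part of this spread in the share called, or in the share of 2-fold differences, was not tested. Nothing is read from either share. The count was 6 without Nipponbare 8 h replicate I (11.5% of all loci in that fit), 5 without Pokkali 8 h replicate I (12.6% of all) and 6 without Pokkali 8 h replicate II (11.4% of all). It was 23 without replicate I of both lines at 0 h (24.6% of all) and 23 without replicate II of both (25.1% of all), and there the share among the 90 was close to the background. With the 8 h arrays alone in the fit, 26 of the 90 differed (28.9%), against 27.9% of all loci in that fit. Of these, 14 were higher and 12 lower in Pokkali. With the replicate number as a block, 17 of the 90 differed (18.9%), 10 higher and 7 lower, against 24.9% of all loci. The split thus moved with the fit, and it was 13 higher and 6 lower with the normexp background correction. The probes were designed on the Nipponbare genome, and a weaker match of a probe to Pokkali RNA and a lower transcript level cannot be told apart in these line comparisons.

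LOC_Os06g28050 gave the smallest adjusted p at 8 h. It was lower in Pokkali by 3.52 log2 units (-3.52, SE 0.29, limma adjusted p = 0.000479), which is an 11.4-fold difference, and all 8 h arrays of Pokkali lay under all of Nipponbare. LOC_Os02g45225 (chromosome 2) had 0.24 and 0.47 in Pokkali at 8 h against 2.27 and 1.74 in Nipponbare at 8 h, a difference of -1.65 (SE 0.29, limma adjusted p = 0.0103). That call was lost without Nipponbare 8 h replicate I and without Pokkali 8 h replicate I. LOC_Os02g18070 (chromosome 2) had -0.87 and -0.67 in Pokkali at 8 h against 1.33 and 2.05 in Nipponbare at 8 h, a difference of -2.46 (SE 0.54, limma adjusted p = 0.0217). The call of LOC_Os02g18070 was lost without Nipponbare 8 h replicate I and without either Pokkali 8 h array. No other of the 90 loci passed as lower in Pokkali at 8 h.

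Higher in Pokkali at 8 h were 7 loci. LOC_Os06g21910 (chromosome 6) had -0.40 and -0.34 in Pokkali at 8 h against -4.44 and -2.83 in Nipponbare at 8 h, a 9.59-fold difference (log2 3.26, SE 0.53, limma adjusted p = 0.00736). It was dark in both lines at 0 h, and its rise was at least 45.7-fold in Pokkali and at least 5.61-fold in Nipponbare. LOC_Os04g52110 (chromosome 4), also dark in both lines at 0 h, had -0.76 and -0.42 in Pokkali at 8 h against -3.10 and -2.81 in Nipponbare at 8 h (5.16-fold, limma adjusted p = 0.0270). LOC_Os08g34390 (chromosome 8) had 2.32 and 3.16 in Pokkali at 8 h against 0.61 and 0.89 in Nipponbare at 8 h (3.98-fold, limma adjusted p = 0.00636). LOC_Os12g43140 (chromosome 12) had 2.76 and 3.40 in Pokkali at 8 h against 0.82 and 1.40 in Nipponbare at 8 h (3.92-fold, limma adjusted p = 0.00509). Its level is the mean of 15 spots of 1 probe, whose median SD within an array was 0.0869 log2 units. LOC_Os05g11620 (chromosome 5) had 4.54 and 4.56 in Pokkali at 8 h against 2.92 and 3.12 in Nipponbare at 8 h (2.89-fold, limma adjusted p = 0.00438). LOC_Os04g31710 (chromosome 4) had 0.84 and 0.54 in Pokkali at 8 h against -0.58 and -0.83 in Nipponbare at 8 h (2.63-fold, limma adjusted p = 0.0198). LOC_Os03g60580 (chromosome 3) had 5.32 and 5.47 in Pokkali at 8 h against 3.71 and 4.66 in Nipponbare at 8 h (2.31-fold, limma adjusted p = 0.0340). In all 7 the lower Pokkali array lay above the higher Nipponbare array. The calls of LOC_Os04g52110, LOC_Os04g31710 and LOC_Os03g60580 were lost without Nipponbare 8 h replicate I and without either Pokkali 8 h array.

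At 0 h, before salt, 4 of the 90 loci (4.44%) differed between the lines, 1 higher and 3 lower in Pokkali. Of all loci tested 16.8% differed, 6.73% of all higher and 10.1% of all lower in Pokkali. The rule asked for 0 h signals far under the 8 h signals in both lines, so nothing is read from the lower share among the 90. LOC_Os07g05365 was lower in Pokkali by 1.66 log2 units (-1.66, SE 0.31, limma adjusted p = 0.0150). LOC_Os02g18070 had -5.11 and -4.46 in Pokkali at 0 h against -3.27 and -1.69 in Nipponbare at 0 h, a difference of -2.31 (SE 0.54, limma adjusted p = 0.0323), so it was lower in Pokkali at both times by about the same amount. LOC_Os06g28050 was at least 1.25-fold lower in Pokkali at 0 h, a bound that its dark Pokkali arrays set. The test took its measured difference of -2.23 log2 units (limma adjusted p = 0.00342), which uses those dark signals. LOC_Os07g34520, dark in Nipponbare, was at least 7.24-fold higher in Pokkali at 0 h. There too the test took the measured difference, 3.53 log2 units (limma adjusted p = 0.0438), and not the bound. Of these 4 calls, 3 rested on single arrays. Leaving out 1 array ended the call of LOC_Os07g34520 for every array but Nipponbare 0 h replicate I and Pokkali 0 h replicate II, with limma adjusted p between 0.0701 and 0.168. It ended that of LOC_Os02g18070 for every array but Nipponbare 0 h replicate I, with limma adjusted p between 0.0518 and 0.129. LOC_Os07g05365 was no longer called without Nipponbare 0 h replicate I (limma adjusted p = 0.0738) or Pokkali 0 h replicate I. LOC_Os06g28050 kept its call without any 1 array and was no longer called with the normexp background correction (limma adjusted p = 0.743). Without replicate II of both lines at 0 h, 10 loci passed in place of 4 (10.8% of all loci in that fit). The split of higher and lower calls moved with the scaling of the arrays, being 1 higher and 3 lower as given, 4 and 3 with quantile normalization, 2 and 3 with median scaling, and 0 and 6 with no scaling.

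The difference of the rises between the lines is built from the rises that the rule used, and it is given as a description. In limma it passed at 0 of the 90 loci, against 0.356% of all loci tested (161 loci). At an unadjusted p under 0.05 there were 10 of the 90 (11.1%), against 10.4% of all loci tested. A locus with a rise under 4 in either line could not enter the set, which limits the differences that the set can hold, and nothing is read from these shares. Without Pokkali 0 h replicate I, 1 locus passed, and with the normexp background correction 2 did, LOC_Os02g45225 and LOC_Os06g28050, where 0.420% of all loci passed. The median difference, Pokkali rise less Nipponbare rise, was 0.07 log2 units over the 90 loci and 0.01 over all loci tested. The 95% intervals were wide, with a median half-width of 2.12 log2 units among the 90. The largest difference in size was at LOC_Os02g45225, with rises of 4.12 log2 units in Pokkali and 6.60 in Nipponbare. That difference was -2.48 (unadjusted 95% interval -3.48 to -1.48, limma adjusted p = 0.0951). Next came LOC_Os07g05365, with rises of 8.27 in Pokkali and 5.84 in Nipponbare. Its difference was 2.43 (unadjusted 95% interval 1.36 to 3.50, limma adjusted p = 0.117). Both were picked as the largest of the 90, and neither passed.

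LOC_Os12g43140 had rises of 6.18 log2 units in Pokkali and 4.41 in Nipponbare (difference 1.77). LOC_Os05g11620 had rises of 6.03 in Pokkali and 4.71 in Nipponbare (difference 1.32), and LOC_Os08g34390 of 6.84 and 5.13 (difference 1.72). All 3 were called higher in Pokkali at 8 h, and none of them was among the loci called at 0 h. LOC_Os03g55230 (chromosome 3), dark in both lines at 0 h, had -3.16 and -3.56 in Pokkali at 8 h and -2.54 and -2.50 in Nipponbare at 8 h, and its difference of -1.29 rests on 0 h signals below the detection limit.

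Lists of salt and drought loci were compiled from general knowledge of rice locus identifiers and not from an annotation, with earlier results of these data known. They hold 70 loci in 9 lists, of which 69 were tested, and 4 of the 90 loci are on them: 1 of the 16 loci of the LEA and dehydrin list, 1 of the 15 of the stress transcription factor list and 2 of the 4 of the list for the glyoxylate cycle and nitrogen remobilisation. None came from the lists of clade A phosphatases, abscisic acid metabolism, osmolyte synthesis, salt and osmotic stress proteins, chlorophyll breakdown or heat shock. The other 86 loci are on no list. Of the 69 listed loci tested, 31 were higher at 8 h in both lines and 2 lower by limma, where 8.93% and 8.34% of all loci tested were so. Per list, 9 of 16 LEA and dehydrin loci, 5 of 7 clade A phosphatase loci, 7 of 15 transcription factor loci, 3 of 4 chlorophyll breakdown loci and 2 of 4 loci for the glyoxylate cycle and nitrogen remobilisation were higher in both lines. So were 2 of 5 loci of abscisic acid metabolism, 2 of 4 salt and osmotic stress loci, with 1 lower, 1 of 8 osmolyte synthesis loci, with 1 lower, and 0 of the 6 tested heat shock loci. The median change per list ran from -0.12 (heat shock) to 3.21 log2 units (glyoxylate and nitrogen) in Pokkali and from -0.32 (heat shock) to 2.81 (chlorophyll breakdown) in Nipponbare, against 0.08 and 0.05 over all loci tested. The 3.21 lies between unlike values. In Pokkali LOC_Os07g34520 and LOC_Os04g40990 changed by 6.66 and 5.14. LOC_Os03g18130 and LOC_Os06g15420 changed by only 1.28 and 0.51 there and did not pass in both lines. LOC_Os09g15670, which lay just under the threshold, is on the clade A phosphatase list.

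The 4 listed members were LOC_Os06g21910, LOC_Os07g34520, LOC_Os02g43330 and LOC_Os04g40990. LOC_Os02g43330 (chromosome 2) had 7.81 and 7.98 in Pokkali at 8 h, compared with 1.47 and 1.38 at 0 h, and 7.47 and 7.91 in Nipponbare at 8 h, against 1.86 and 2.13 at 0 h. It lay above the 75th percentile of every array, at 0 h too, and its rise was 6.47 log2 units in Pokkali and 5.69 in Nipponbare. LOC_Os04g40990 (chromosome 4) had 3.61 and 4.07 in Pokkali at 8 h, compared with -0.25 and -2.34 at 0 h, and 3.37 and 4.10 in Nipponbare at 8 h, against -0.09 and -1.38 at 0 h. Its 8 h levels overlapped between the lines, and replicate II was the lower one at 0 h in both.

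Leaf, root and seed markers were read as a check of the labelled tissue. All 4 leaf and all 3 root marker loci were lower at 8 h in both lines by limma. Their summed signal, in units of the 75th percentile of the array, was 27.4 to 41.6 for leaf in Pokkali at 8 h, compared with 117 to 128 at 0 h, and 21.8 to 30.4 in Nipponbare at 8 h, against 120.0 to 122 at 0 h. For root it was 1.34 to 1.51 in Pokkali at 8 h, compared with 9.01 to 14.4 at 0 h, and 0.798 to 0.866 in Nipponbare at 8 h, against 9.39 to 20.1 at 0 h. Such a sum weighs its brightest probe most. The root sum at 0 h lay mostly in LOC_Os02g44310, with levels of 2.98 and 3.73 in Pokkali and 3.09 and 4.27 in Nipponbare. Of the 4 seed marker loci 2 were higher and 0 lower in both lines, in the direction of the 90 loci. Their summed signal was 2.57 to 3.21 in Pokkali at 8 h, compared with 0.747 to 1.15 at 0 h, and 2.30 to 2.47 in Nipponbare at 8 h, against 0.518 to 0.765 at 0 h. Root locus LOC_Os03g46470 was well above background on only 3 of the 8 arrays, seed locus LOC_Os10g26060 on 6 and seed locus LOC_Os03g49190 on 7. Only 2 of the 4 seed loci were so on both Nipponbare 0 h arrays. The part of these shifts in the rises of the 90 loci was not tested.

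By the locus identifiers, the 90 loci lay on all 12 chromosomes. Chromosome 8 held 13 of them (14.4%), where it carries 7.43% of the loci on the array, chromosome 1 held 11, chromosome 5 held 10 and chromosome 4 held 8. The other chromosomes held 4 to 7 each. Locus numbers run in steps of 10 along a chromosome, and a few of the 90 loci lay within 5 such steps of another. LOC_Os08g04210 and LOC_Os08g04240 lay 3 steps apart on chromosome 8. LOC_Os08g04210 had 1.77 and 2.69 in Pokkali at 8 h, compared with -2.59 and -4.60 at 0 h, and 1.65 and 2.36 in Nipponbare at 8 h, against -1.80 and -4.49 at 0 h. The loci between them did not pass in both lines: the difference was 0.44 log2 units in Pokkali and 0.56 in Nipponbare at LOC_Os08g04220, and 0.58 and 2.22 at LOC_Os08g04230. On chromosome 9, LOC_Os09g31025 and LOC_Os09g31031 follow each other. LOC_Os09g31031 had 5.08 and 3.69 in Pokkali at 8 h, compared with -0.95 and -1.63 at 0 h, and 6.05 and 4.98 in Nipponbare at 8 h, against -0.61 and -0.87 at 0 h. LOC_Os09g31025 had 0.03 and -1.59 in Pokkali at 8 h, compared with -5.01 and -6.93 at 0 h, and 0.09 and -2.18 in Nipponbare at 8 h, against -4.65 and -7.10 at 0 h. Both were lower in replicate II than in replicate I at 8 h in both lines, opposite to most of the 90 loci. Whether neighbouring loci share sequence that 1 probe could bind was not tested, because probe sequences were not used here.

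The densest stretch was on chromosome 11, between LOC_Os11g47500 and LOC_Os11g47610. It holds 12 loci on the array, of which 11 were tested, 3 are among the 90 and 6 were higher at 8 h in both lines by limma. LOC_Os11g47500 had 6.27 and 6.31 in Pokkali at 8 h, compared with 1.95 and -0.33 at 0 h, and 3.45 and 4.12 in Nipponbare at 8 h, against -0.35 and -2.67 at 0 h. LOC_Os11g47550 had 2.31 and 2.04 in Pokkali at 8 h, compared with -1.85 and -3.86 at 0 h, and 3.91 and 4.75 in Nipponbare at 8 h, against -0.12 and -1.79 at 0 h. LOC_Os11g47610 had 2.15 and 2.00 in Pokkali at 8 h, compared with -1.87 and -4.30 at 0 h, and 1.67 and 2.57 in Nipponbare at 8 h, against -2.57 and -4.96 at 0 h. All 3 were lower in replicate II than in replicate I at 0 h in both lines. Between them, LOC_Os11g47510 rose by 3.13 log2 units in Pokkali and 1.90 in Nipponbare, LOC_Os11g47530 by 3.48 and 3.07, and LOC_Os11g47600 by 4.04 and 2.37, each of which passed in both lines. LOC_Os11g47520, with changes of 3.88 in Pokkali and 1.46 in Nipponbare, did not pass in both. LOC_Os11g47590, dark in Pokkali, had changes of -0.05 in Pokkali and 3.20 in Nipponbare and did not pass in both. LOC_Os11g47560 had differences of 0.64 in Pokkali and 0.60 in Nipponbare, and LOC_Os11g47574 of 0.73 and 0.31.

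**Figure D5:**
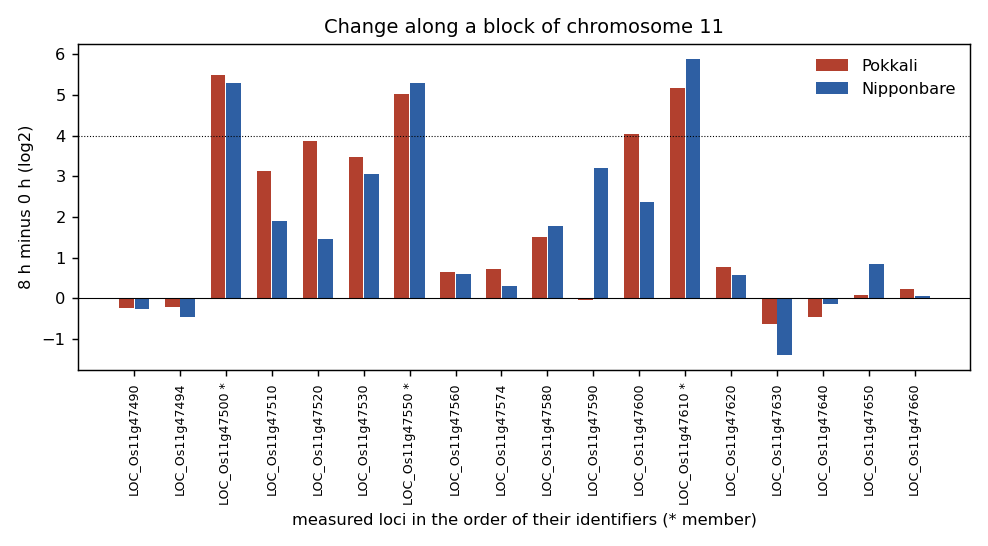
Change from 0 h to 8 h (log2 units, bars from 0) in Pokkali and Nipponbare for the measured loci around the stretch of chromosome 11, in the order of their identifiers, with a dotted line at 4 and asterisks on the 3 loci of the set. Bars are high from LOC_Os11g47500 to LOC_Os11g47550 and again at LOC_Os11g47600 and LOC_Os11g47610. Outside the stretch no bar reaches 1 upward, and LOC_Os11g47630 has changes of -0.64 in Pokkali and -1.40 in Nipponbare.

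Around all of the 90 loci, 709 tested loci lay within 5 steps and were not in the set. Of these, 92 were higher at 8 h in both lines (13.0%), against 8.93% of all loci tested, and 48 were lower in both lines (6.77%), against 8.34%. Without the loci of the chromosome 11 stretch and its surroundings, 88 of 690 were higher (12.8%). A rise of at least 8-fold in both lines was seen at 11 of the 709 (1.55%), against 0.357% of the loci tested that are neither in the set nor left out by name.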

How the data were processed

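Total RNA of whole seedlings was labelled with Cy3 and hybridised to a custom 1-colour array, per the labels' protocols. Per the file headers, the authors scanned an IRGSP5 design and extracted it with Feature Extraction version 10.7.1.1. The values used are processed signal intensity as deposited, background-subtracted within an array but neither logged nor scaled across arrays, and the deposited series values equal them. The deposited flag columns (control, outlier, saturated, well above background) are 0 or 1 per spot, per the file headers. The 8 arrays shared 1 slide and 1 scan, Nipponbare in row 1, Pokkali in row 2, 0 h in columns 1 and 2 and 8 h in columns 3 and 4, so position and group cannot be told apart and no slide block could be fitted. The description of 1 Nipponbare 8 h sample gives replicate 1 where its title gives II, and the title was followed.

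The 1319 control spots per array and outlier spots were left out, log2 intensity was shifted to each array's 75th percentile, and spots of a locus were averaged. A locus was well above background where more than a share of 0.5 of its spots was. Loci that passed this on both arrays of any group and had a value on every array entered a 4-group model in limma 3.58.1 (R 4.3.3; 4 residual and 2.37 prior degrees of freedom), 45236 loci in all, with two-sided tests and an adjusted p under 0.05 as the threshold. The fit was also run on simulated data in which all arrays varied independently. Such data hold no replicate deviation shared between the lines, so they cannot show how the fit handles it. The number of arrays limits the precision. Dark loci have a bound, with their 0 h (or dark line's) values raised to the lowest signal well above background on that array. Dark values above that signal were kept as measured. The labels tie the replicate numbers to no shared plant, batch or day, there are only 2 numbers, and the main fit left the samples unpaired. Over all loci, replicate deviations correlated between the lines with r of 0.54 at 0 h and 0.22 at 8 h, and between times with r of 0.06 to 0.11. The lines thus shared a replicate deviation within a time, which the unpaired fit leaves in the spread. Alternatives covered background correction, scaling, outlier spots, probe choice, thresholds, filters, arrays left out, the replicate block and the moderation of variances. The normexp background used the median spot signal, since no mean signal was given. It adds an offset of 50 intensity units to every signal, which narrows log2 differences that involve dim signals. The part of this offset in the normexp results was not tested.

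The named loci are the 10 with the largest smaller rise, members on the lists, up to 6 with the smallest adjusted p in each line test, neighbours within 5 locus steps and 3 loci on either side of the threshold; further loci named for their replicate gap, their 0 h detection or their 8 h call were chosen after their values were seen. The members and lists were chosen with earlier results of these data known.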

Additional observations from a re-analysis of the deposited data

How the results depend on the processing

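Of the 90 loci, 43 met the rule with the normexp background correction and 59 where a signal above background was required on all 8 arrays, and 75 with dark 0 h signals raised to the detection limit; 250 loci met it at a threshold of 3 log2 units and 31 at 5. With arrays left out the count ran from 63 to 129. For the lines at 8 h, 10 of the 90 loci passed as reported (22.0% of all loci tested), 19 with normexp (21.0% of all), 26 with the arrays of the compared groups only (27.9% of all), and 5 to 23 with arrays left out (5 to 13 with 1 array left out). The 8 h share of the 90 was thus near the background with normexp and with the compared groups only, and not under it. At 0 h, 4 passed as reported (16.8% of all), 1 with normexp (16.2% of all), 7 with quantile normalization (17.2% of all), 2 where a signal on all 8 arrays was required (59 tested, 14.3% of all), 2 with the arrays of the compared groups only (67 tested, 9.69% of all) and 3 to 10 with arrays left out. The difference of the rises passed at 0 loci as reported, at 2 with normexp (0.420% of all) and at 0 to 1 with arrays left out, and its median over the 90 loci ran from -0.50 to 0.61 with arrays left out. Where leaving out an array left a group with 1 array, that array was assumed to vary like the other groups. With the replicate number as a block, 17 loci passed at 8 h, including the 10 reported (24.9% of all), 3 at 0 h (18.8% of all) and 0 for the difference (0.0663% of all). The labels do not pair the samples by number, but over the 90 loci the replicate deviations of both lines correlated with r of 0.72 at 0 h and 0.68 at 8 h. The main fit leaves that shared deviation in the spread. The cause of these shifts was not tested, other than the smaller number of loci tested where a stricter filter was set. Among the loci with the 6 smallest adjusted p in each line test, no difference changed direction in the alternatives run. Signal over background at 0 h limits the rises of 31 of the 90 loci.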
